A study of Oryza sativa with 12 samples.

Results

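The comparison described here sets stem bases of rice (Oryza sativa) seedlings 4 h after auxin against stem bases 2 h after auxin. Its members were chosen by the labelled time: 8 of the 12 arrays of the series, 4 at 4 h and 4 at 2 h, with 2 crl1 and 2 wild-type (WT) arrays at each time. All seedlings were of cultivar Taichung 65, were 8 days old and grew at 26 °C with 12 h of light per day, and auxin was indole-3-acetic acid at a final 1e-06 M in the liquid medium. The groups were thus crl1 at 4 h and crl1 at 2 h, WT at 4 h and WT at 2 h, and crl1 and WT seedlings taken just before auxin, called 0 h, with 2 arrays each. Each extract pooled 20 stem bases, and the series gives the 2 arrays of a group as independent repetitions of the whole experiment. crl1 is a recessive mutant that hardly forms crown roots; its allele is not stated in the labels, and the level of CRL1 itself was not analysed here. No mock-treated seedlings were collected, so hours after auxin and hours of the day cannot be told apart.

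Auxin acts on transcription by removing Aux/IAA repressors, which frees auxin response factors (ARFs) to activate their targets. Among the fastest targets are the Aux/IAA genes themselves and GH3 genes, whose enzymes tie auxin to amino acids, so the response contains its own brakes. In rice the stem base is where crown roots are initiated from ground tissue next to the vascular cylinder. CRL1, an LBD transcription factor downstream of ARFs, is needed for that step, and the homeobox factor WOX11 promotes crown root emergence and growth together with cytokinin signalling. Cytokinin levels in turn depend on LOG-type enzymes, which release the active hormone, and on CKX oxidases, which destroy it.

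Every array had been scaled by the authors to the same trimmed mean signal of 100, with 2% trimmed at each end. The array of WT at 2 h, repetition 2, stood apart from the other 11. Its 3' to 5' signal ratio for GAPDH was 35.6 (3.08 to 17.3 on the others), its hybridisation controls averaged 1685 (511 to 836) and its 18S rRNA probe set gave 556 (3399 to 5290). The ratio for GAPDH was 6.81 to 8.34 on the 4 h arrays and 3.84 to 7.54 on the other 3 arrays at 2 h. The counts of calls between 4 h and 2 h over all probe sets are therefore also given without WT at 2 h repetition 2. Named genes whose call between 4 h and 2 h was lost without it are marked. Sizes without it are given for some genes only. All 9 KNOX and related shoot markers (OSH and HOS genes) were above the array background, the 95th percentile of 64 reporter probe sets, on at least 10 of 12 arrays, and their summed signal was 4792 to 5910 at 4 h and 5056 to 5450 at 2 h. The 7 leaf markers summed to 11916 to 17707 at 4 h and 14767 to 25310 at 2 h, with RBCS1 not above background on any array. Of the root tip markers, RAA1 was above background on 11 arrays and PIN2 on 8.

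Most probe sets that passed the test between 4 h and 2 h were lower at 4 h. With the genotypes averaged, 301 of 32524 probe sets passed limma's test at an adjusted p of 0.05 (percent called 0.925), of which 245 (0.753%) were lower and 56 (0.172%) higher at 4 h. The lower ones had a median log2 difference of -1.22 and the higher ones one of 1.24, and all 301 had the same sign in crl1 as in WT. The 4 h and 2 h arrays did not overlap in either genotype for 300 of the 301, which is a consequence of passing the test; among all kept probe sets 6.23% lay wholly lower and 7.65% wholly higher at 4 h in both genotypes. Without WT at 2 h repetition 2, 231 probe sets passed (0.71%), 181 lower and 50 higher, and 184 of them were among the 301. With repetition as a block, since the repetitions number whole experiments, 599 passed (1.84%), 445 lower and 154 higher.

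The number of calls depended on single arrays, as 2 per group allow. It was 3526 without WT at 2 h repetition 1, where the split turned round to 2367 higher and 1159 lower, 59 and 46 without either crl1 array at 4 h, 95 and 170 without either WT array at 4 h, 35 and 45 without either crl1 array at 2 h, and 157 and 163 without either WT array at 0 h. In these fits the remaining array of a group is assumed to vary like the other groups. Of the genes named by the rules in the methods, 52 passed the averaged test. All 52 kept their sign in each of the 22 or 23 other settings tried, which their selection on these same arrays largely fixed. 35 of them also passed without WT at 2 h repetition 2, and 10 passed in every setting.

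The passing probe sets were sorted by what had happened between 0 h and 2 h. A probe set was called fading when it had moved by at least 1 log2 unit by 2 h and then moved back, continuing when it moved on in the same direction, and beginning when its change by 2 h was under 0.5. There were 63 fading probe sets (62 lower and 1 higher at 4 h), 1 continuing (higher), 152 beginning (116 lower and 36 higher), and 85 between these limits. Because both differences use the same 2 h arrays, an unusual 2 h value pushes them in opposite directions, so the sorting is a description only. For the fading probe sets the median log2 change was 1.43 at 2 h against 0 h and -0.20 at 4 h against 0 h, so that as a group they were near their starting level at 4 h. For the beginning ones these medians were 0.11 and -0.66. Without WT at 2 h repetition 2 the classes held 48, 0, 107 and 76 probe sets.

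**Figure D1:**
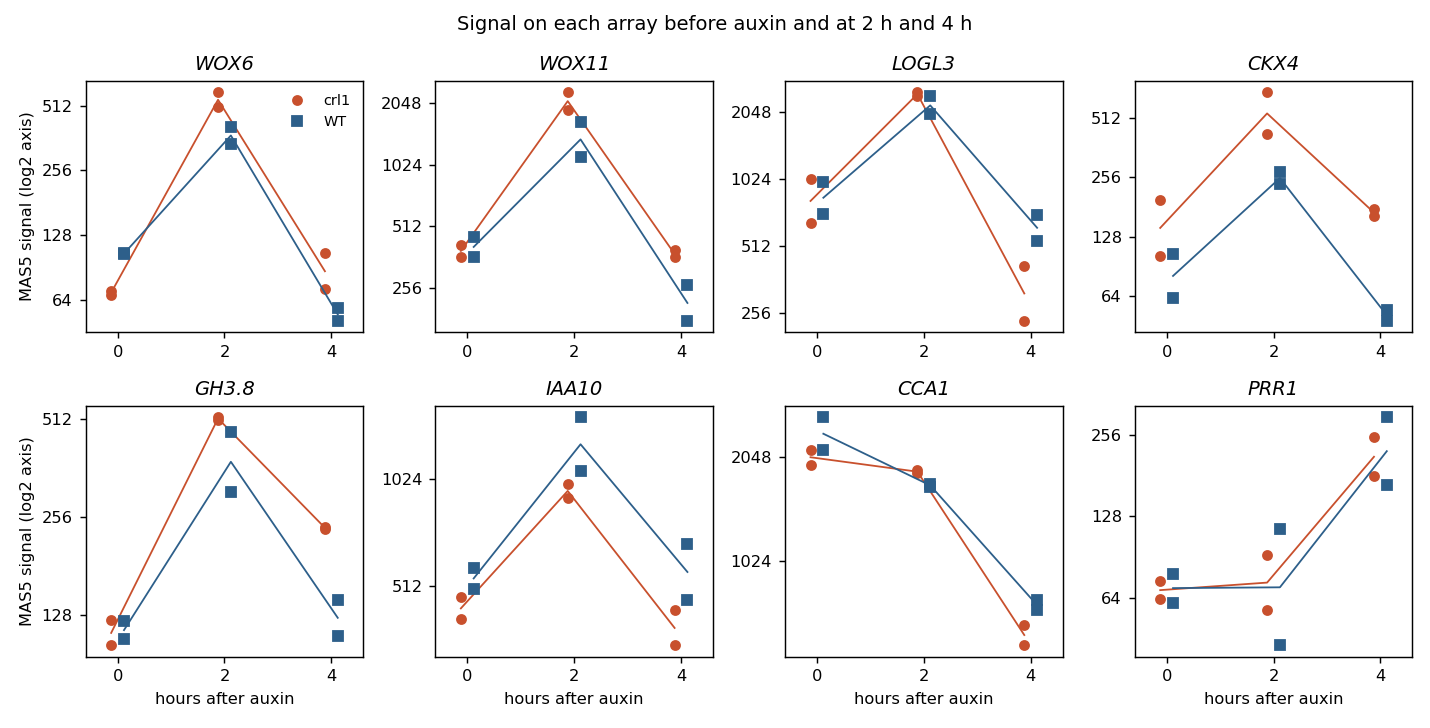
MAS5 signal on each of the 12 arrays (log2 axis) at 0 h, 2 h and 4 h for 8 genes; circles are crl1 arrays, squares are WT arrays, and lines join the geometric means of 2 arrays. WOX6, WOX11, LOGL3, CKX4, GH3.8 and IAA10 peak at 2 h in both genotypes, CCA1 drops and PRR1 climbs between 2 h and 4 h.

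The WOX genes, homeobox factors of the WUSCHEL family that act in stem cell niches and organ initiation, included 2 that had risen by 2 h and fell again by 4 h. WOX6 gave signals of 105 and 71.7 in crl1 and 58.4 and 51.1 in WT at 4 h, against 589 and 503 in crl1 and 338 and 408 in WT at 2 h. All 4 arrays at 4 h were lower than all 4 at 2 h, by a log2 difference of -2.71 ± 0.16 (SE, adjusted p = 0.000164). By 2 h WOX6 had risen by 2.40 ± 0.16 (SE, adjusted p = 0.000282) over 0 h, and its 4 h level differed from 0 h by -0.30 ± 0.16 (SE, adjusted p = 0.65). WOX11, the crown root factor, had signals of 389 and 359 in crl1 and 263 and 176 in WT at 4 h, against 1897 and 2307 in crl1 and 1659 and 1114 in WT at 2 h. Again no array at 4 h reached the lowest array at 2 h, and the log2 difference was -2.57 ± 0.18 (SE, adjusted p = 0.000457). Its change by 2 h had been 2.09 ± 0.18 (SE, adjusted p = 0.00124), and its signals at 0 h were 414 and 362 in crl1 and 362 and 452 in WT. In this bulk tissue, fewer cells that transcribe WOX11 and less transcript per cell cannot be told apart.

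Both genes also passed in crl1 alone and in WT alone in the main fit. The log2 difference of WOX6 was -2.65 in crl1 (adjusted p = 0.00712) and -2.77 in WT (adjusted p = 0.00462). That of WOX11 was -2.48 in crl1 (adjusted p = 0.0141) and -2.66 in WT (adjusted p = 0.0107). These calls did not hold in every setting. In crl1 0 probe sets passed with only the 8 arrays at 2 h and 4 h, and in WT 0 passed with array weights. Without WT at 2 h repetition 2 the averaged values were -2.64 ± 0.17 (SE, adjusted p = 0.000403) for WOX6 and -2.72 ± 0.17 (SE, adjusted p = 0.000403) for WOX11. 2 of the 5 WOX genes that passed the filter on low values, of 7 on the array, were lower and 0 higher. The shares of all kept probe sets were 0.753% lower and 0.172% higher. WOX9, also called QHB and marking the quiescent centre of the root, had signals of 9.1 and 17.9 in crl1 and 14.3 and 23.2 in WT at 4 h, against 6.15 and 11.5 in crl1 and 10 and 20.2 in WT at 2 h. These values overlap between times, and 2 of the 4 arrays at 2 h were at or below background (log2 difference 0.48 ± 0.40 SE, adjusted p = 0.635).

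The cytokinin turnover genes that fell included both an activating LOG type and degrading CKX types. LOGL3, a LOG-type gene of cytokinin activation, had signals of 237 and 416 in crl1 and 709 and 542 in WT at 4 h, against 2519 and 2434 in crl1 and 2009 and 2416 in WT at 2 h. The 2 h arrays lay close together and well above all 4 h arrays, and the log2 difference was -2.40 ± 0.22 (SE, adjusted p = 0.00164). It had risen by 1.49 ± 0.22 (SE, adjusted p = 0.0308) by 2 h, a call lost without WT at 2 h repetition 2 (1.42, adjusted p = 0.0909). The oxidase gene CKX4 gave 177 and 162 in crl1 and 48 and 54.6 in WT at 4 h, against 688 and 422 in crl1 and 273 and 236 in WT at 2 h. Its level was higher in crl1 than in WT on every array at both times, while its log2 difference of -1.99 ± 0.25 (SE, adjusted p = 0.00777) had the same direction in both genotypes. CKX4 had risen by 1.79 ± 0.25 (SE, adjusted p = 0.0281) by 2 h, which missed the threshold without that same array (1.84, adjusted p = 0.0585). A further oxidase gene, CKX5, differed by -0.24 ± 0.23 (SE, adjusted p = 0.883) by 2 h against 0 h and was lower at 4 h than at 2 h, with 21.6 and 17.2 in crl1 and 39.9 and 37.7 in WT at 4 h, against 61.5 and 47.9 in crl1 and 66.1 and 99.7 in WT at 2 h, a log2 difference of -1.28 ± 0.23 (SE, adjusted p = 0.0321). In all, 3 of 12 cytokinin turnover genes that passed the filter were lower and 0 higher, beside 0.753% and 0.172% of all kept probe sets. The list median was -0.45, beside 0.05 for all kept probe sets. With repetition as a block 5 of these genes were lower. CKX5 did not pass without WT at 2 h repetition 2 (-1.13 ± 0.23 SE, adjusted p = 0.0651).

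The type-A response regulators, which cytokinin induces and which damp its signalling, gave 0 calls among 5 members. The share called among all kept probe sets was 0.925%. RR4 had 39.4 and 37.7 in crl1 and 59.4 and 82.5 in WT at 4 h, against 56.6 and 49.9 in crl1 and 106 and 88.2 in WT at 2 h, and RR2 had 39.9 and 49.6 in crl1 and 48.8 and 78.2 in WT at 4 h, against 83.6 and 64.4 in crl1 and 103 and 70 in WT at 2 h. In crl1 both genes were lower on each 4 h array than on each 2 h array, while in WT the arrays at the 2 times overlapped for RR2. The log2 differences were -0.47 ± 0.17 (SE, adjusted p = 0.273) for RR4 and -0.59 ± 0.22 (SE, adjusted p = 0.278) for RR2, neither past the threshold. RR1 had signals of 32.4 and 18.6 in crl1 and 14.8 and 28.7 in WT at 4 h, against 30.6 and 20.4 in crl1 and 38.8 and 64.1 in WT at 2 h, with a log2 difference of -0.65 ± 0.29 (SE, adjusted p = 0.368).

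Of the auxin-inactivating enzymes, 4 were lower at 4 h than at 2 h, and GH3.2 was still far above 0 h at 4 h. The list median of the 10 GH3 and auxin inactivation genes that passed the filter, of 11 on the array, was -0.50, and 0 were higher at 4 h. Among all kept probe sets 0.753% passed as lower and 0.172% as higher. The 5 members other than these 4 genes and GH3.2 did not pass, with differences of -0.22 to 1.66. GH3.8 had signals of 239 and 235 in crl1 and 143 and 110 in WT at 4 h, against 509 and 519.9 in crl1 and 306 and 469 in WT at 2 h. Each 4 h array was lower than every 2 h array, and the log2 difference was -1.36 ± 0.17 (SE, adjusted p = 0.00777). GH3.8 had risen by 1.96 ± 0.17 (SE, adjusted p = 0.00124) at 2 h, and its signals at 0 h were 103 and 123 in crl1 and 108 and 122 in WT. GH3.4 gave 153 and 146 in crl1 and 119 and 136 in WT at 4 h, against 472 and 424 in crl1 and 259 and 381 in WT at 2 h, a log2 difference of -1.44 ± 0.16 (SE, adjusted p = 0.00391). GH3.1 gave 303 and 334 in crl1 and 140.1 and 202 in WT at 4 h, against 946 and 798 in crl1 and 447 and 898 in WT at 2 h, a log2 difference of -1.68 ± 0.24 (SE, adjusted p = 0.0122). DAO, the dioxygenase that oxidises auxin, had 1692 and 1567 in crl1 and 1576 and 1293 in WT at 4 h, against 3116 and 3596 in crl1 and 2694 and 3688 in WT at 2 h, a log2 difference of -1.09 ± 0.18 (SE, adjusted p = 0.0216). At 2 h the 4 genes lay 1.24 to 1.96 log2 units above 0 h, past the threshold in all but GH3.1 (adjusted p = 0.0667). At 4 h they differed from 0 h by -0.26 to 0.60, with no adjusted p at or under 0.05 in that last comparison.

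GH3.2 differed from these 4 genes in its level over 0 h, while its difference between 4 h and 2 h was also negative. Its signals were 3110 and 3146 in crl1 and 3796 and 1688 in WT at 4 h, against 4099 and 4766 in crl1 and 3748 and 7631 in WT at 2 h, and its signals at 0 h were 166 and 210.4 in crl1 and 205 and 290 in WT. It had risen by 4.51 ± 0.28 (SE, adjusted p = 0.000212) at 2 h and was still 3.72 ± 0.28 (SE, adjusted p = 0.000535) above 0 h at 4 h. The difference between 4 h and 2 h was -0.79 ± 0.28 (SE, adjusted p = 0.258), with a 95% interval of -1.40 to -0.17. WT at 2 h repetition 2 held its highest signal, and without that array the difference was -0.53 ± 0.26 (SE, adjusted p = 0.403). Against 0 h, 41 probe sets passed at 2 h (percent called 0.126) and 148 at 4 h (0.455), and 2 passed at both times in the same direction. These were GH3.2 and the Aux/IAA gene IAA20 on chromosome 6 (LOC4340245), and 0 of them differed by less than 0.5 between 4 h and 2 h. They were singled out after their values were seen.

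**Figure D2:**
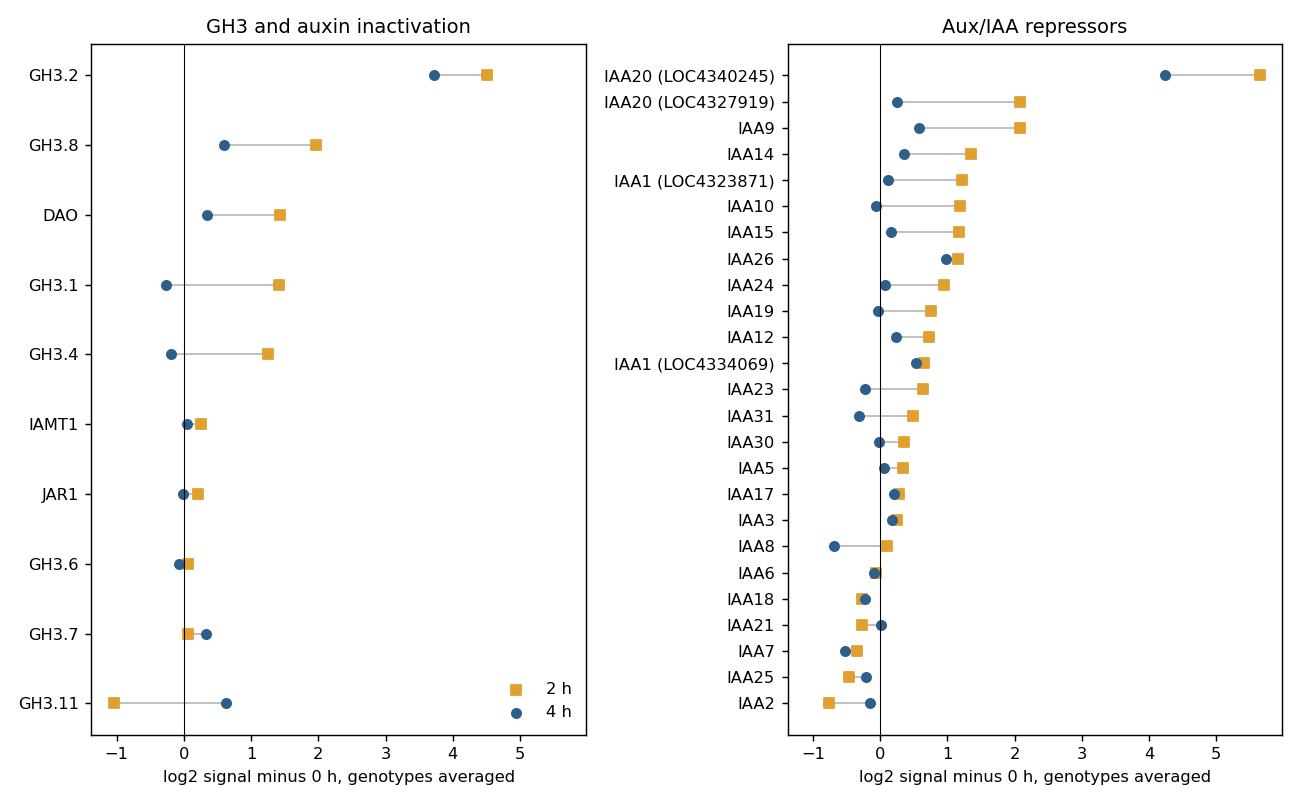
Log2 signal minus 0 h, genotypes averaged, at 2 h (squares) and 4 h (circles) for the 10 GH3 and auxin inactivation genes (left) and 25 Aux/IAA genes (right) that passed the filter. GH3.2 and IAA20 (LOC4340245) stay 3.72 and 4.23 log2 units above 0 h at 4 h, while GH3.8, GH3.1, GH3.4 and DAO lie between -0.26 and 0.60.

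The Aux/IAA genes encode the short-lived repressors of the auxin response. 5 of 25 that passed the filter, of 26 on the array, were lower at 4 h and 0 were higher. Over all kept probe sets 0.753% passed as lower and 0.172% as higher, and the median difference was 0.05. Of the 25 Aux/IAA genes 21 had a negative difference, with a list median of -0.50. With repetition as a block 8 were lower and 1 higher. IAA10 had 347 and 436 in crl1 and 673 and 466 in WT at 4 h, against 907 and 992 in crl1 and 1077 and 1534 in WT at 2 h. At 4 h all arrays were below all 2 h arrays, by -1.24 ± 0.17 (SE, adjusted p = 0.0121). IAA1 (LOC4323871) had 770 and 783 in crl1 and 1184 and 659 in WT at 4 h, against 1758 and 1805 in crl1 and 1731 and 1831 in WT at 2 h, a log2 difference of -1.10 ± 0.18 (SE, adjusted p = 0.0207). IAA15 had 1205 and 1031 in crl1 and 888 and 623 in WT at 4 h, against 1909 and 1953 in crl1 and 1657 and 1833 in WT at 2 h, a log2 difference of -1.01 ± 0.15 (SE, adjusted p = 0.0153). These 3 genes had risen by 1.17 to 1.21 log2 units at 2 h and lay -0.06 to 0.16 from 0 h at 4 h. The rises of IAA10 (1.05, adjusted p = 0.0694) and IAA1 (1.19, adjusted p = 0.0802) missed the threshold without WT at 2 h repetition 2.

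Both genes named IAA20 had weak signals before auxin and different courses after it. IAA20 on chromosome 1 (LOC4327919) had 16.6 and 9.28 in crl1 and 16.7 and 8.13 in WT at 4 h, against 45.4 and 38.5 in crl1 and 56.9 and 34.5 in WT at 2 h. All 4 h arrays were lower than all 2 h arrays (log2 difference -1.84 ± 0.34 SE, adjusted p = 0.0392), and 1 of the 4 h arrays was at or below background. On log2(signal + 16) the difference was -1.06. IAA20 on chromosome 6 (LOC4340245) had 568 and 275 in crl1 and 652 and 85.4 in WT at 4 h, against 666 and 796 in crl1 and 811 and 1032 in WT at 2 h. Its WT arrays at 4 h lay far apart, and the log2 difference of -1.42 ± 0.51 (SE, adjusted p = 0.265) did not pass the test (95% interval -2.54 to -0.29). Relative to 0 h it was 4.23 ± 0.51 (SE, adjusted p = 0.00909) at 4 h. IAA31 was the remaining call of the family, with a log2 difference of -0.80 (adjusted p = 0.0396), a call lost without WT at 2 h repetition 2 (-0.77, adjusted p = 0.0646), whereas IAA2 had the highest difference, 0.61 (adjusted p = 0.113).

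Genes that carry or make auxin, and the ARFs, showed few calls. Of 16 ARF genes that passed the filter 1 was lower, ARF15, with 684 and 661 in crl1 and 505 and 419 in WT at 4 h, against 1185 and 1095 in crl1 and 819 and 811 in WT at 2 h, a log2 difference of -0.79 ± 0.12 (SE, adjusted p = 0.0178). The list median was -0.03, near that of all kept probe sets, of which 0.753% passed as lower and 0.172% as higher. Without WT at 2 h repetition 2, and likewise with repetition as a block, 2 ARF genes were lower. Of 5 auxin transport genes 0 passed, their differences spanning -0.86 to 1.43, and 1 was lower with repetition as a block. PIN2, an efflux carrier of the root tip, had 12.6 and 11.6 in crl1 and 24.1 and 33.9 in WT at 4 h, against 9.27 and 12.9 in crl1 and 33.2 and 22.8 in WT at 2 h. It was lower in crl1 than in WT on every array at both times, and its difference between times was 0.10 ± 0.27 (SE, adjusted p = 0.91). Both crl1 arrays at 2 h were at or below background for PIN2, so the sizes of these differences are not well determined. Of 2 auxin synthesis genes, TAR2 and YUCCA1, 0 passed, and 1 was lower with repetition as a block.

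Of the clock genes, 2 changed between 2 h and 4 h, 1 in each direction. CCA1, a MYB factor of the morning loop, had 669 and 583 in crl1 and 786 and 738 in WT at 4 h, against 1839 and 1870 in crl1 and 1708 and 1678 in WT at 2 h, and its signals at 0 h were 1944 and 2144 in crl1 and 2668 and 2137 in WT. No 4 h array came near the 2 h range. The log2 difference was -1.36 ± 0.13 (SE, adjusted p = 0.00166), after a difference of -0.32 ± 0.13 (SE, adjusted p = 0.725) by 2 h. PRR1, a pseudo-response regulator homologous to Arabidopsis TOC1 of the evening loop, had 252 and 180.5 in crl1 and 299 and 167 in WT at 4 h, against 92.1 and 57.6 in crl1 and 115 and 42.6 in WT at 2 h. The groups did not overlap, and PRR1 was higher by 1.61 ± 0.32 (SE, adjusted p = 0.0459). WT at 2 h repetition 2 held its lowest 2 h signal, and without that array PRR1 missed the threshold (1.26 ± 0.26 SE, adjusted p = 0.0646). Of 7 clock genes 1 was higher and 1 lower, beside 0.172% and 0.753% of all kept probe sets. A positive difference was found in 6 of the 7, with a list median of 0.66 beside 0.05 for all kept probe sets. With repetition as a block 3 were higher and 1 lower. GI had a log2 difference of 0.92 (adjusted p = 0.0517) and PCL1 one of 2.52 (adjusted p = 0.17).

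Other named genes that fell belonged to several pathways. BHLH172, a bHLH-type regulator also listed as BU1, had 430.1 and 452 in crl1 and 221 and 131 in WT at 4 h, against 1076 and 1287 in crl1 and 856 and 1302 in WT at 2 h. No 4 h array reached the 2 h range, the log2 difference was -2.02 ± 0.20 (SE, adjusted p = 0.00217), and WT alone passed as well (-2.63, adjusted p = 0.0118). It was a fading gene, having risen by 1.54 ± 0.20 (SE, adjusted p = 0.0183). PP2C09, a protein phosphatase of type 2C, had 219 and 262 in crl1 and 244 and 177 in WT at 4 h, against 744 and 735 in crl1 and 406 and 854 in WT at 2 h, a log2 difference of -1.56 ± 0.22 (SE, adjusted p = 0.013). SWEET16, a sugar transporter gene, had 37.3 and 33.1 in crl1 and 22.3 and 10.8 in WT at 4 h, against 79.8 and 70.6 in crl1 and 54.1 and 88.7 in WT at 2 h, a log2 difference of -1.63 ± 0.26 (SE, adjusted p = 0.0207). NAC3, a NAC-domain factor gene, differed by -1.003 ± 0.18 (SE, adjusted p = 0.0298) after a rise of 1.69 ± 0.18 (SE, adjusted p = 0.00462) by 2 h.

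Some falls had no marked change by 2 h or one between the class limits. AOS3, of the allene oxide synthase family that feeds jasmonate synthesis, had 13.1 and 8.86 in crl1 and 1.71 and 0.664 in WT at 4 h, against 14.9 and 25.6 in crl1 and 15.1 and 16.4 in WT at 2 h. Of these, 3 arrays at 4 h, both WT arrays among them, and 1 array at 2 h were at or below background, so the size of the difference is not well determined. The fitted log2 difference was -2.37 ± 0.40 (SE, adjusted p = 0.0243), and on log2(signal + 16) it was -0.65 (adjusted p = 0.0466). It missed the threshold without WT at 2 h repetition 2 (-2.34 ± 0.46 SE, adjusted p = 0.0565). ADC1, for arginine decarboxylase of polyamine synthesis, had 316 and 177 in crl1 and 182 and 80.7 in WT at 4 h, against 702 and 492 in crl1 and 540.4 and 518 in WT at 2 h, a log2 difference of -1.72 ± 0.29 (SE, adjusted p = 0.0257) that missed the threshold without WT at 2 h repetition 2 (-1.74 ± 0.33 SE, adjusted p = 0.0539). A brighter probe set of ADC1 differed by -1.09 (adjusted p = 0.0838). The formin gene FH13, whose protein family nucleates actin, differed by -1.36 ± 0.22 (SE, adjusted p = 0.0212), and a brighter probe set of FH13 by -0.52 (adjusted p = 0.257). The ammonium transporter gene AMT1-2 had 30.1 and 17.9 in crl1 and 30.4 and 41.8 in WT at 4 h, against 80.7 and 61.8 in crl1 and 74.5 and 79.4 in WT at 2 h, a log2 difference of -1.36 ± 0.21 (SE, adjusted p = 0.0178), after 0.07 ± 0.21 (SE, adjusted p = 0.965) by 2 h. The plasma membrane aquaporin gene PIP2-2 differed by -0.88 ± 0.13 (SE, adjusted p = 0.0158), with signals of 1235 and 1110 in crl1 and 1133 and 1325 in WT at 4 h, against 2295 and 2080 in crl1 and 1965 and 2517 in WT at 2 h.

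Cell wall, homeobox and calcium signalling lists each held a few lower members and 0 higher ones. Over all kept probe sets 0.753% passed as lower and 0.172% as higher. 2 of 25 expansin and XTH genes, which loosen walls, were lower. These were EXPB11 (-0.93 ± 0.18 SE, adjusted p = 0.0401) and EXP2 (-0.76 ± 0.13 SE, adjusted p = 0.027). 3 of 40 homeobox genes of the HOX, ROC and KNOX groups were lower. These were HOX22 (-1.05 ± 0.21 SE, adjusted p = 0.0494), HOX1 (-0.78 ± 0.15 SE, adjusted p = 0.0456) and HOX13 (-0.75 ± 0.14 SE, adjusted p = 0.0407). 3 of 68 genes of calcium signalling were lower, among them the kinase gene CIPK17 (-1.19 ± 0.24 SE, adjusted p = 0.0483) and the calmodulin-like genes CML10 (-0.97 ± 0.19 SE, adjusted p = 0.0462) and CML27 (-0.82 ± 0.14 SE, adjusted p = 0.0297). Of these 8 genes, EXP2, HOX13 and CML27 also passed without WT at 2 h repetition 2. The fit with repetition as a block gave 3 lower expansin and XTH genes, 4 lower homeobox genes and 4 lower calcium signalling genes. OSH1, the KNOX gene of the shoot meristem, had a range of 519 to 788 at 4 h and 933 to 1779 at 2 h, with a log2 difference of -0.66 (adjusted p = 0.233).

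**Figure D3:**
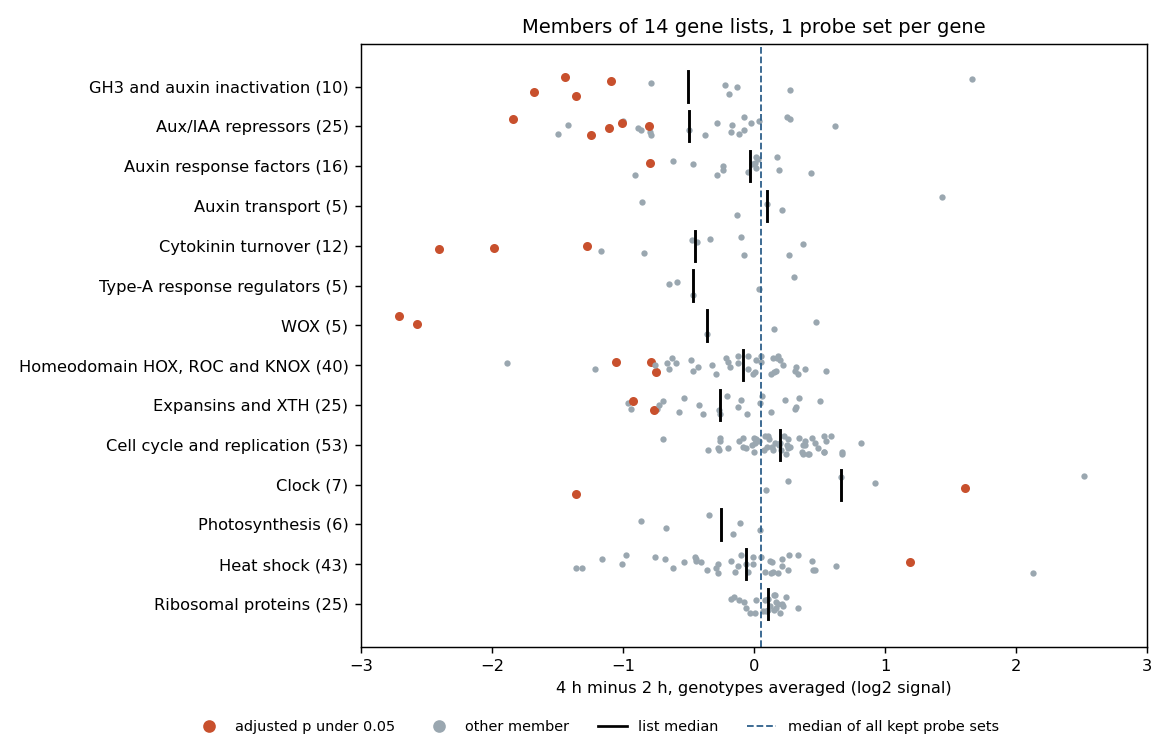
Log2 difference between 4 h and 2 h, genotypes averaged, for each member of 14 gene lists (rows, with the number that passed the filter on low values); large points passed the adjusted p threshold, bars are list medians, and the dashed line is the median of all kept probe sets, 0.05. Calls in the auxin, cytokinin and WOX lists lie to the left, at or below -0.79.

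10 named genes were higher at 4 h, and 7 of them belonged to the beginning class. BBD1 had 433 and 275 in crl1 and 671 and 284 in WT at 4 h, against 101 and 64.8 in crl1 and 144 and 22.4 in WT at 2 h. Its signals did not overlap between times, though WT at 2 h repetition 2 was far below the other 2 h arrays, and the log2 difference of 2.52 ± 0.49 (SE, adjusted p = 0.0436) was 1.85 ± 0.30 (SE, adjusted p = 0.0311) without it. CPD2, a cytochrome P450 of the CYP90A group of brassinosteroid synthesis, had 207 and 227 in crl1 and 160.2 and 196 in WT at 4 h, against 59 and 81.9 in crl1 and 107 and 123 in WT at 2 h, a log2 difference of 1.13 ± 0.17 (SE, adjusted p = 0.0163). RBOHB, an NADPH oxidase gene, had 641 and 607 in crl1 and 608 and 652 in WT at 4 h, against 431 and 416 in crl1 and 378 and 337 in WT at 2 h, a log2 difference of 0.69 ± 0.12 (SE, adjusted p = 0.0281). SAT5 differed by 1.49 ± 0.25 (SE, adjusted p = 0.0253), but a brighter probe set of SAT5 differed by -0.72 (adjusted p = 0.258).

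The remaining 6 rises passed with all arrays and missed the threshold without WT at 2 h repetition 2. They were PRR1, described above, HSF07, a heat stress factor gene (1.19 ± 0.23 SE, adjusted p = 0.0422; 1.07 ± 0.23 SE, adjusted p = 0.0739 without it), the tonoplast aquaporin gene TIP4-1 (1.13 ± 0.22 SE, adjusted p = 0.0436; 0.99 ± 0.22 SE, adjusted p = 0.0848 without it), TPP7, PPT2 and RTEL1. TPP7, for a trehalose 6-phosphate phosphatase, was the only named gene that had fallen by 2 h, by 1.16 log2 units (adjusted p = 0.0455), and was higher again at 4 h. That earlier fall missed the threshold without WT at 2 h repetition 2 (-1.06, adjusted p = 0.101). TPP7 had 460 and 334 in crl1 and 394 and 430.4 in WT at 4 h, against 272 and 194 in crl1 and 227 and 170.4 in WT at 2 h, and its signals at 0 h were 547 and 439 in crl1 and 512 and 414 in WT. The log2 difference was 0.92 ± 0.18 (SE, adjusted p = 0.0464) and 0.81 ± 0.18 (SE, adjusted p = 0.0848) without that array. PPT2 differed by 0.85 ± 0.17 (SE, adjusted p = 0.0442). RTEL1, a helicase gene, differed by 0.84 ± 0.17 (SE, adjusted p = 0.0464), and its second probe set by -0.68 (adjusted p = 0.355). Of 11 named genes with a further kept probe set, 9 had the same sign there and 1 passed there too.

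Genes known only by their LOC number included the steepest changes. LOC4324218 had 184 and 148 in crl1 and 531 and 270.5 in WT at 4 h, against 26.6 and 27.3 in crl1 and 34.4 and 32.1 in WT at 2 h, a log2 difference of 3.06 ± 0.32 (SE, adjusted p = 0.00234). WT alone passed as well, with 3.51 (adjusted p = 0.0295), though not without WT at 2 h repetition 2 (3.46, adjusted p = 0.166). LOC4332175 had 234 and 226 in crl1 and 269 and 193 in WT at 4 h, against 50.5 and 37.1 in crl1 and 60.4 and 76 in WT at 2 h, a log2 difference of 2.08 ± 0.19 (SE, adjusted p = 0.00164), and was the only gene to pass as higher in crl1 alone (2.41, adjusted p = 0.0163). LOC4332353, the single continuing gene, differed by 2.55 ± 0.48 (SE, adjusted p = 0.0392) after 1.02 ± 0.48 (SE, adjusted p = 0.767) by 2 h. LOC4333719 and LOC4343921 differed by 2.52 ± 0.38 (SE, adjusted p = 0.0163) and by 2.01 ± 0.36 (SE, adjusted p = 0.0323). LOC4333719 was at or below background on 2 of 4 arrays at 2 h, and on log2(signal + 16) its difference was 1.52 (adjusted p = 0.0161). A brighter probe set of LOC4333719 differed by 1.39 (adjusted p = 0.264). Of these 5 rises, LOC4332353 and LOC4343921 missed the threshold without WT at 2 h repetition 2.

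LOC4326913 had 15 and 33.8 in crl1 and 33.5 and 60 in WT at 4 h, against 202 and 282 in crl1 and 272 and 382 in WT at 2 h, a log2 difference of -3.12 ± 0.30 (SE, adjusted p = 0.00204), and its second probe set passed too (-2.26, adjusted p = 0.00234). LOC4327187 had 32.6 and 25.1 in crl1 and 26 and 27.7 in WT at 4 h, against 135 and 146 in crl1 and 122 and 214 in WT at 2 h, a log2 difference of -2.44 ± 0.20 (SE, adjusted p = 0.00122). Neither passed the test at 2 h against 0 h (-0.41 ± 0.30 SE, adjusted p = 0.854 and -0.58 ± 0.20 SE, adjusted p = 0.649), and both were past the threshold at 4 h against 0 h (-3.53 ± 0.30 SE, adjusted p = 0.00096 and -3.02 ± 0.20 SE, adjusted p = 0.000437). LOC4339041 and LOC4344302 were fading genes with high peaks. They had risen by 3.94 ± 0.33 (SE, adjusted p = 0.00124) and by 2.99 ± 0.33 (SE, adjusted p = 0.0063), and differed between 4 h and 2 h by -2.42 ± 0.33 (SE, adjusted p = 0.0119) and by -2.51 ± 0.33 (SE, adjusted p = 0.0103). At 4 h they differed from 0 h by 1.53 ± 0.33 (SE, adjusted p = 0.104) and by 0.48 ± 0.33 (SE, adjusted p = 0.734). LOC4351498 differed by -2.68 ± 0.53 (SE, adjusted p = 0.0474) and missed the threshold without WT at 2 h repetition 2 (-2.04 ± 0.42 SE, adjusted p = 0.0662).

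**Figure D4:**
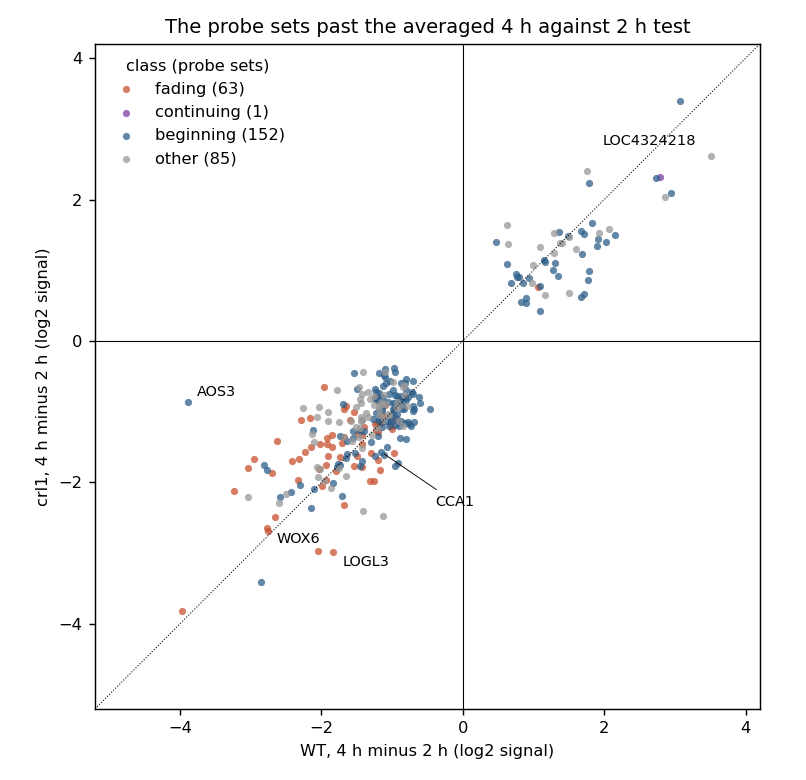
Log2 difference between 4 h and 2 h in crl1 (vertical axis) against that in WT (horizontal axis) for the 301 probe sets that passed the averaged test, coloured by class; the dotted line marks equal change. Every point lies in the lower left or upper right field, and AOS3 lies farther from the line than LOGL3, on the other side of it.

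Taken one genotype at a time, 9 probe sets passed in crl1 (percent called 0.0277, 8 lower and 1 higher) and 11 in WT (0.0338, 10 lower and 1 higher). In crl1 the named genes were WOX6, WOX11, LOGL3 (-2.98, adjusted p = 0.0141) and CCA1 (-1.57, adjusted p = 0.0194), and in WT they were WOX6, WOX11 and BHLH172. Without WT at 2 h repetition 2 these counts were 40 in crl1 and 9 in WT. With repetition as a block they were 22 in crl1 and 95 in WT. The test of the difference, crl1 minus WT, gave 0 calls in limma (percent called 0), with 1233 probe sets at an unadjusted p under 0.05, which is 3.79% of all tested, and a lowest adjusted p of 0.895. It also gave 0 calls without WT at 2 h repetition 2 and with the block. This does not show that the genotypes changed alike. LOGL3 had log2 differences of -2.98 in crl1 and -1.83 in WT, which differ by -1.15 ± 0.44 (SE, adjusted p = 0.895). BHLH172 had -1.42 in crl1 and -2.63 in WT, which differ by 1.22 ± 0.40 (SE, adjusted p = 0.895). AOS3 had -0.86 in crl1 and -3.88 in WT, which differ by 3.02 ± 0.80 (SE, adjusted p = 0.895), with both WT arrays at 4 h at or below background.

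Growth-related lists had no calls in the averaged comparison with all arrays. Of 53 cell cycle and replication genes and 34 kinesin genes 0 passed, and the list medians were 0.20 and 0.15. Without WT at 2 h repetition 2 these medians were 0.32 and 0.33, and 1 cell cycle gene passed as higher. For the cell cycle list the median was 0.46 in crl1 and -0.02 in WT, and for the kinesins 0.48 in crl1 and -0.17 in WT. The WT medians were above 0 without that array, at 0.16 for the cell cycle list and 0.11 for the kinesins. The members' differences, crl1 minus WT, had medians of 0.43 and 0.51 with all arrays and of 0.17 and 0.28 without WT at 2 h repetition 2, and 0 members passed the test of that difference. Of 25 ribosomal protein genes 0 passed, with a median of 0.11. Of 43 heat shock genes 1 was higher and 0 lower, beside 0.172% and 0.753% of all kept probe sets. Their median was -0.06, and 2 were higher with repetition as a block. The 6 photosynthesis genes had 0 calls and a median of -0.25, and RCAA1, Rubisco activase, had a difference of -0.87 (adjusted p = 0.0537). In the fit with repetition as a block 1 photosynthesis gene was lower.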

How the data were processed

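RNA of stem bases was hybridised to the Affymetrix Rice Genome Array, and 12 arrays were used, 2 per group. Each probe set has 1 deposited intensity on a linear scale, its MAS5 signal; per the submitters' processing notes the authors used Affymetrix Expression Console (version not given in the sources used here). The log2 of the signal was analysed as it stood. Rice probe sets above the array's median rice signal on at least 2 arrays were kept (32524 of 57194, for 16438 genes). limma 3.58.1 in R 4.3.3 (lmFit, eBayes with trend) fitted 1 mean per group, leaving 6 residual degrees of freedom with a median prior of 4.79; errors are standard errors, tests two-sided, and p-values adjusted by Benjamini-Hochberg over all kept probe sets with 0.05 as threshold. Only 2 arrays per group limit the precision.

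A gene's name is its symbol or synonym in the gene table (ASM3414082v1, names only); 22436 probe sets have 1 gene, and 2457 of 17905 genes have a name. The brightest probe set stands for a gene in the 37 lists, of which 786 entries matched by name and 31 were left out by hand. Among the largest changes, a gene is given by its brightest probe set of those that passed. Named genes are the 15 largest rises and falls of the averaged comparison, 6 each within a genotype, 5 each with a LOC number only, up to 4 passing members of each list, and 8 genes given whatever their p; among the largest, the arrays at the 2 times must not overlap. The members, lists and rules were chosen with earlier results of these data known. Repetition numbers mark repeats of the whole experiment, and deviations of same-numbered arrays correlated at 0.13 (median of 15 pairs of groups, 11 over 0.1). Fits with repetition as a block are therefore given where they change a count over all probe sets or an averaged list count. No promoter or protein sequences were used.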

Additional observations from a re-analysis of the deposited data

How the results depend on the processing

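Limits. With 2 arrays per group, counts of calls move with each array. The signs of the 52 named genes that passed do not, but their selection on these same arrays largely fixed this. The GAPDH ratio and the array of WT at 2 h repetition 2 move together, and their parts in the results were not tested.

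For 4 h against 2 h with genotypes averaged, the count of 301 became 599 with repetition as a replicate block, 987 with the block within genotype, 92 with only the 8 arrays at 2 h and 4 h, 186 with these arrays and no interaction, 174 after median centring and 1019 with the GAPDH ratio as covariate. All 301 were among the calls of both block fits and of the covariate fit. In crl1 the count of 9 became 22 and 49 with the block and the block within genotype, 0 with the 8 arrays (2165 at an unadjusted p under 0.05), 4 after median centring (3 lower), 20 on log2(signal + 16), 16 with the filter at the 75th percentile, 321 with array weights and 91 with the covariate. In WT the count of 11 became 95 and 295 with the blocks, 2 with the 8 arrays, 24 with the stricter filter, 0 with array weights (2112 at an unadjusted p under 0.05) and 130 with the covariate. For 2 h against 0 h, 41 became 81 and 104 with the blocks, 13 after median centring, 26 with array weights and 129 with the covariate. For 4 h against 0 h, 148 became 261 and 377 with the blocks, 283 with array weights and 463 with the covariate. Median centring moved the median of all probe sets at 2 h against 0 h to -0.17, against -0.01 without it, and at 4 h against 0 h to -0.07, against 0.05 without it, where 20 probe sets were then higher and 115 lower (57 and 91 without it). The causes were not tested. Array weights were 0.35 for both WT arrays at 2 h and 0.82 to 1.51 for the others. With 2 arrays and 1 mean per group, both arrays of a group get the same weight, so the weights cannot tell them apart.

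Leaving out 1 array at a time gave 35 to 3526 calls for the averaged comparison, 0 to 40 for crl1, 0 to 5006 for WT, 0 to 1705 for the difference crl1 minus WT, 11 to 1379 for 2 h against 0 h and 14 to 277 for 4 h against 0 h. The highest count came without WT at 2 h repetition 1, where repetition 2 alone stands for its group, in the averaged comparison, in WT, in the difference and at 2 h against 0 h. The difference crl1 minus WT gave 0 calls in all other settings. The log2 difference of PIN2 between 4 h and 2 h, not past the threshold, ran from -0.037 to 0.23 over these fits and was below 0 without WT at 2 h repetition 2 (-0.037), crl1 at 2 h repetition 1 (-0.020) and WT at 4 h repetition 2 (-0.024).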

Other observations

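Among the lists not described above, a few members changed between 4 h and 2 h with the genotypes averaged. Over all kept probe sets 0.753% passed as lower and 0.172% as higher. 1 of 28 jasmonate and JAZ genes was lower (AOS3; list median 0.02), as were 1 of 27 bZIP and bHLH genes (BHLH172; -0.14), 1 of 7 NAC genes (NAC3; -0.30) and 1 of 34 nutrient transport genes (AMT1-2; 0.01). Of 23 aquaporin genes 1 was higher (TIP4-1) and 1 lower (PIP2-2), with a median of 0.0022, and with repetition as a block 2 were lower. Of 35 sugar and trehalose genes 1 was higher (TPP7) and 1 lower (SWEET16), with a median of 0.04. AOS3, TIP4-1 and TPP7 missed the threshold without WT at 2 h repetition 2.

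0 members passed in 14 further lists. Their medians were -0.03 for 4 gibberellin, -0.22 for 8 ethylene, -0.04 for 9 ethylene response factor, -0.13 for 5 histone, -0.04 for 27 cellulose synthase, -0.33 for 12 DREB and late embryogenesis, 0.27 for 5 WRKY, -0.09 for 10 MYB, 0.02 for 26 iron and zinc, 0.01 for 12 peroxidase and germin, -0.22 for 9 diterpenoid phytoalexin and -0.06 for 15 tubulin and actin genes, while the SAUR list held 1 gene (0.71) and the LBD list 1 gene (AS2, 0.44). These medians lie beside 0.05 for all kept probe sets. Cellulose synthases had 1 lower member with repetition as a block.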
